A study of Arabidopsis thaliana with 5 samples.

Results

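The genes described here are 37 genes of the flavonoid pathway of Arabidopsis thaliana, out of the 37336 genes in the count table. They were listed by gene identifier for their place in the known pathway. They comprise enzymes of general phenylpropanoid, flavonoid, flavonol, anthocyanin and proanthocyanidin synthesis, the proteins that carry and oxidise the products, and the MYB, bHLH and WD40 regulators. Developing seeds of the dof4.1-3 mutant (3 libraries) were compared with those of the wild type Col-0 (2 libraries) by RNA-seq. Both genotypes were in the Col-0 background and, by the labels, 9 days after pollination, although the study's own text also gives a day later. The mutant is a single T-DNA line with the insertion in the second exon of DOF4.1 (AT4G00940), which encodes a Dof-type transcription factor. The sample labels leave out the allele number, which was taken from the study's methods. Whether replicates came from separate plants was not stated, so p-values measure only the spread between these libraries. Whole seeds hold the maternal seed coat, the endosperm and the embryo together.

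Flavonoids are made from phenylalanine. Phenylpropanoid enzymes supply an activated cinnamic acid, chalcone synthase and the enzymes after it build the flavonoid skeleton, and dihydroflavonols then go either to flavonols, through flavonol synthase, or to leucoanthocyanidins, through dihydroflavonol reductase. In the Arabidopsis seed coat the second route ends in proanthocyanidins (condensed tannins), which accumulate in the innermost cell layer of the inner integument, the endothelium, and turn brown when oxidised. Loss of most genes of the route to proanthocyanidins gives a pale seed, hence the name TRANSPARENT TESTA (TT). The last steps are switched on by a complex of a MYB protein (TT2), a bHLH protein (TT8) and a WD40 protein (TTG1), whereas the flavonol genes answer to the MYB proteins MYB11, MYB12 and MYB111.

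The promoters of 4 genes at this branch point are shown because the genes of the proanthocyanidin side, DFR, LDOX and BAN, were all lower in the mutant libraries, whereas FLS1, on the flavonol side, was not. Each is the 250 bases upstream of the annotated start, from the RefSeq TAIR10.1 genome, written 5′ to 3′ on the strand of the gene. Capitals mark matches on either strand to the E-box CANNTG, of which the G-box CACGTG is a special case and which bHLH proteins recognise, or to a MYB core, CNGTTA or CNGTTG. The letters CAGTTG fit both.
BAN, chr1:22792804-22793053, minus strand: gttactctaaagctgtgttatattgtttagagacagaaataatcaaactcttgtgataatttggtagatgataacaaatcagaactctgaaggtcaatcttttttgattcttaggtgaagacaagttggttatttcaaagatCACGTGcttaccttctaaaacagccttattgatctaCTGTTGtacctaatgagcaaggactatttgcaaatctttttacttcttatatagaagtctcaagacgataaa
DFR, chr5:17166033-17166282, minus strand: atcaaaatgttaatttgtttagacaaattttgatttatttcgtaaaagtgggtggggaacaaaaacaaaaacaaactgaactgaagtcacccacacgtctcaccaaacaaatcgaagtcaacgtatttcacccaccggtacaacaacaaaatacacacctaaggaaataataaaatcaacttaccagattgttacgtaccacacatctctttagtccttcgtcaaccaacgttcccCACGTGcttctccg
LDOX, chr4:12006210-12006459, minus strand: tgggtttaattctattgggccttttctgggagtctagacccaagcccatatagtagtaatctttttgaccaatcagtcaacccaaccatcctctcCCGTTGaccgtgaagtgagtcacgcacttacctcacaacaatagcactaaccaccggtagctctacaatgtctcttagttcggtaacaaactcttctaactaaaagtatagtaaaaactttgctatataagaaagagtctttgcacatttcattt
FLS1, chr5:2803583-2803832, plus strand: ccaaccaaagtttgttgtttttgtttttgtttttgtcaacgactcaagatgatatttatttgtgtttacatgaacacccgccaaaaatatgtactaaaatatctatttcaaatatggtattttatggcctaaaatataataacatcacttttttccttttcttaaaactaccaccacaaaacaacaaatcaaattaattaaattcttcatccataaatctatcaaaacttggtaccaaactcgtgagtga
The BAN window held a G-box that began 108 bases before the start and a MYB core that began 72 bases before it. DFR held a G-box 14 bases before its start, LDOX held a MYB core 155 bases before its start and no E-box, and FLS1 held neither motif. Among the 37 genes, 8 promoters had a G-box (21.6%), against 7.79% of the promoters of 18875 tested genes. Those genes were CHS, CHIL, F3H, DFR, BAN, UF3GT, MYB12 and PAP2, so the motif did not follow the proanthocyanidin branch. Any E-box was found in 25 of them (67.6%, against 56.2%) and a MYB core in 12 (32.4%, against 42.2%). An AC element, which MYB proteins of phenylpropanoid genes bind (ACCTACC and the variants ACCAACC and ACCTAAC), was found in 4 (10.8%, against 6.19%), those of CHIL, 4CL3, UGT89C1 and TT8. The letters AAAG, the core to which Dof proteins bind, were in all 37 windows and in 98.0% of those of the tested genes, so in windows of this length they do not tell genes apart. These are matches of letters and do not show that a protein binds there.

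The libraries held 20101091, 21722055 and 21053818 gene counts in dof4.1-3 and 16500028 and 17049283 in Col-0. The 37 genes took 0.274%, 0.232% and 0.240% of these counts in dof4.1-3, against 0.325% and 0.368% in Col-0. The pathway was thus a small fraction of the counts, and a smaller one in every mutant library. Such a share also falls when other transcripts take more of a library. The embryo storage genes described below had higher sums in every mutant library. DOF4.1 itself had 3, 4 and 4 counts in dof4.1-3 and 1 and 14 in Col-0, too few to check the labels. Levels below are CPM, the counts of a gene per 1e+06 counts of library size, after that size was scaled by TMM. With factors of 0.849 to 1.20 the libraries sum to different totals, so CPM are not shares of a library. A gene was called at an adjusted p under 0.05 in the quasi-likelihood test of edgeR, over 19003 tested genes.

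Of the 37 genes, 33 had enough counts to be tested. BAN was called lower in dof4.1-3 (1 gene, 3.03% of those tested, against 0.963% of all tested genes). None was called higher, for which the share over all genes was 0.121%. At an unadjusted p under 0.05 in edgeR, 10 genes were lower and 2 higher (30.3% and 6.06%, against 9.52% and 6.33% of all genes). DESeq2 on the same genes called 4 lower (BAN, LDOX, TT19 and TT10) and 0 higher, where 3.29% of all genes were called lower and 1.36% higher, and limma-voom called 1 and 0. In 13 genes every mutant library lay below both Col-0 libraries (39.4%, against 18.3% of all genes), in 5 every mutant library lay above both (15.2%, against 16.3%), and in 15 the genotypes overlapped. The fold change was negative for 23 genes and positive for 10. Its median was -0.26 on the log2 scale, beside 0.03 for all tested genes.

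**Figure D1:**
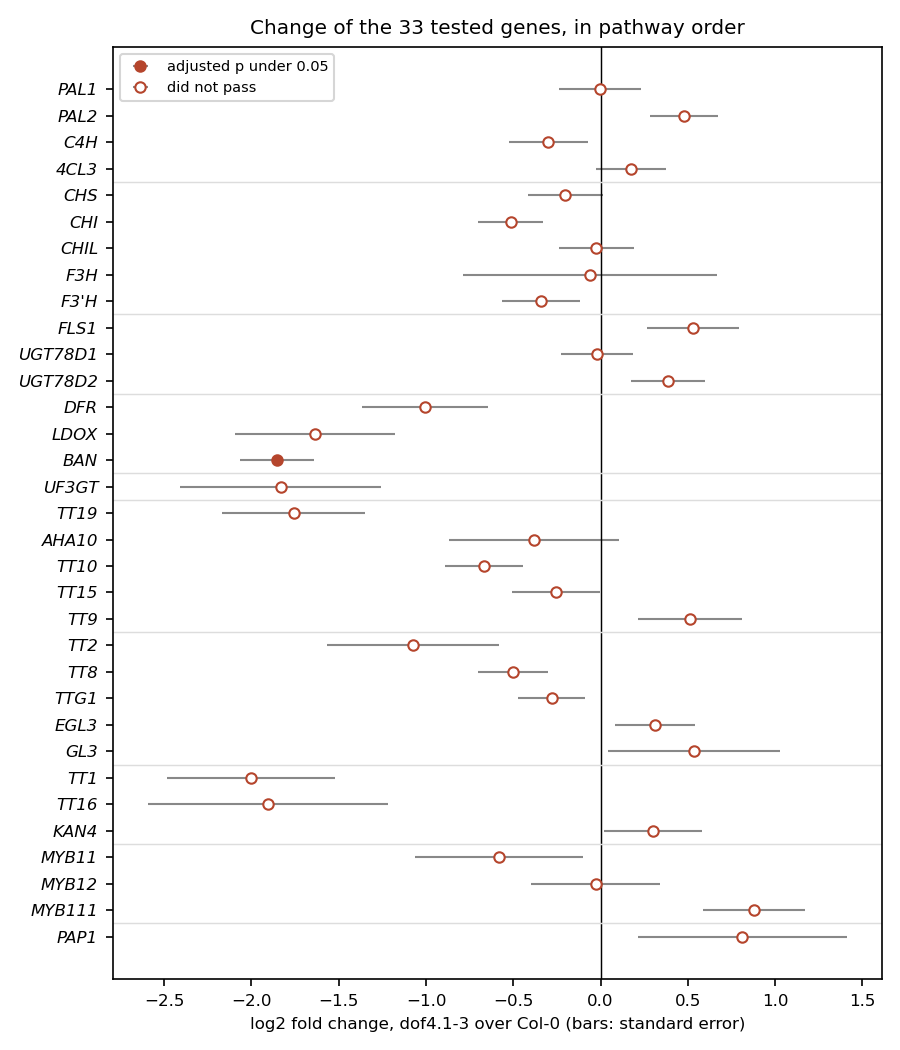
Log2 fold change of each of the 33 tested genes, dof4.1-3 over Col-0 (horizontal axis), in pathway order from the phenylpropanoid enzymes at the top to the anthocyanin regulator PAP1 at the bottom, with grey lines between branches. Points are edgeR estimates, bars are standard errors, and the filled point marks BAN, the one gene past an adjusted p of 0.05. Estimates near or below -1 lie in the DFR-LDOX-BAN block, at UF3GT and TT19, and at the regulators TT2, TT1 and TT16, while the phenylpropanoid, early and flavonol blocks lie between -0.52 and 0.53.

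Levels per kilobase of transcript spanned several orders of magnitude, and the order followed the branch only in part. TT10, the laccase that oxidises proanthocyanidins, stood first with a mean of 354 CPM per kb over the 5 libraries. CHS followed at 292, then F3'H at 194, CHIL at 137 and FLS1 at 90.7 CPM per kb. TT10, CHS and F3'H alone took 55.4%, 50.2% and 54.7% of the counts of the 37 genes in dof4.1-3 and 61.5% and 58.0% in Col-0. TT10 and CHS were close in dof4.1-3, at 287 and 275 CPM per kb, and further apart in Col-0, at 456 and 317 CPM per kb. BAN, DFR and LDOX held ranks 15 to 17, and the flavonoid MYB regulators lay below them. At the bottom, UGT89C1 and PAP2 had no counts in any library.

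**Figure D2:**
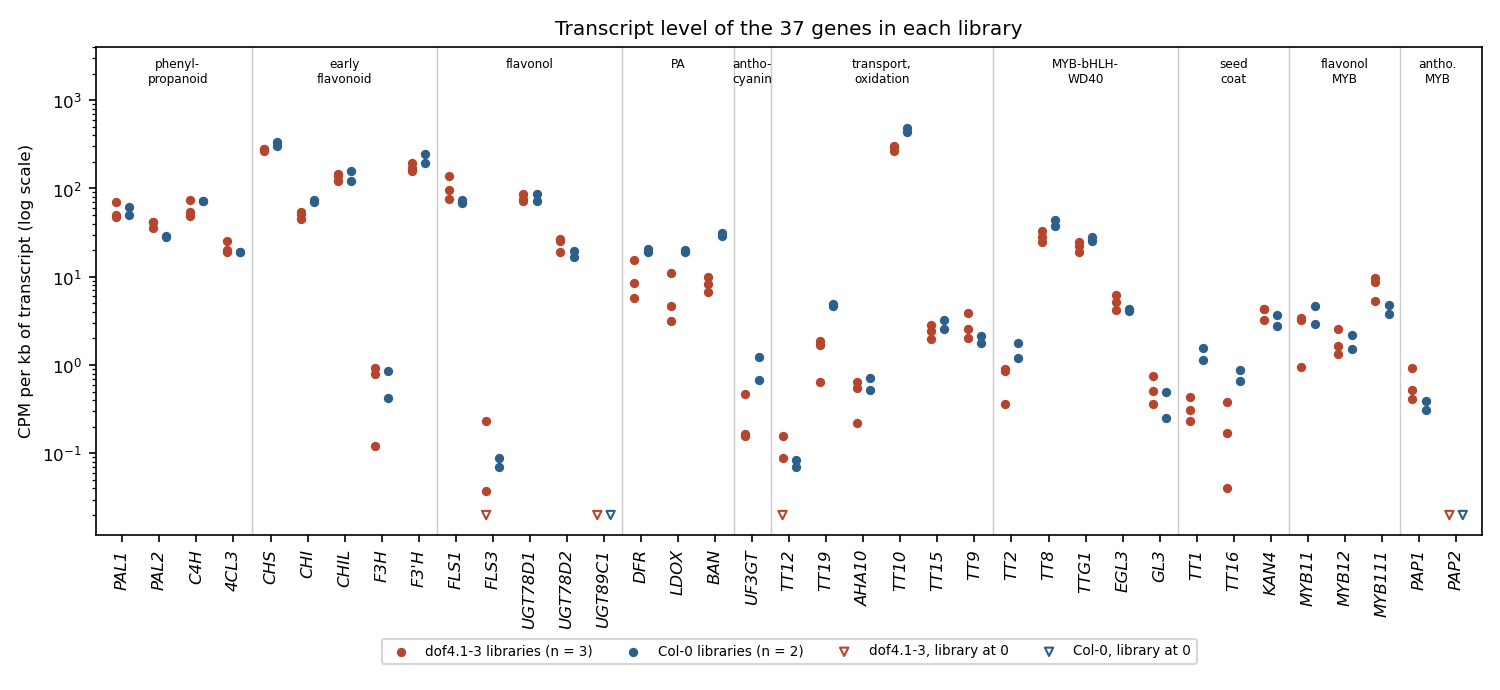
Level of each of the 37 genes in CPM per kb of transcript (vertical axis, log scale) in the 3 dof4.1-3 libraries (red, left of each pair) and the 2 Col-0 libraries (blue), grouped by branch. Open triangles at the lower edge mark libraries with no counts. In 13 genes every mutant library lies below the Col-0 pair: CHS, CHI, DFR, LDOX, BAN, UF3GT, TT19, TT10, TT2, TT8, TTG1, TT1 and TT16. In 5 every mutant library lies above it: PAL2, 4CL3, FLS1, MYB111 and PAP1. Over all tested genes these shares were 18.3% and 16.3%. F3H lies far below its neighbours in the pathway.

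The general phenylpropanoid enzymes did not share a direction, and none of the 4 was called. PAL1 and PAL2 encode phenylalanine ammonia lyase, the entry step. PAL2 (AT3G53260, chromosome 3, 19744018 to 19747114) had 103, 121 and 120 CPM in dof4.1-3, against 84.6 and 80.4 CPM in Col-0, a log2 fold change of 0.48 (SE 0.19, edgeR adjusted p = 0.272). PAL1 had 140, 204 and 147 CPM in the mutant and 145 and 183 CPM in Col-0, and the genotypes overlapped (log2 fold change -0.00). For C4H, the cinnamate hydroxylase, the mutant values of 102, 153 and 111 CPM overlapped 151 and 150 CPM in Col-0 (log2 fold change -0.30). 4CL3, the coumarate CoA ligase most tied to flavonoids, had 39.9, 41.9 and 53.2 CPM, against 39.8 and 39.9 CPM. Its groups did not overlap, but the closest libraries, at 39.91 and 39.88 CPM, nearly met, and the log2 fold change was 0.18.

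Among the early flavonoid enzymes all 5 fold changes were negative and none was called (edgeR adjusted p from 0.218 to 0.977). The log2 fold changes of CHIL (-0.02) and F3H (-0.06) were near 0 and turned positive in some other fits. The F3H counts cannot be read as its level, as described below, so the shared sign carries little weight. At an unadjusted p under 0.05 in edgeR, 1 of the 5 was lower (9.52% over all genes). DESeq2 called 0 of them (3.29% lower over all genes). Chalcone synthase (CHS, TT4, AT5G13930, chromosome 5, 4488476 to 4490264), the committed step, had 476, 452 and 480 CPM in dof4.1-3, against 567 and 512 CPM in Col-0. The groups were separate, yet the difference was small, with a log2 fold change of -0.20 (SE 0.21, edgeR adjusted p = 0.677). Chalcone isomerase (CHI, TT5, AT3G55120, chromosome 3, 20430059 to 20431597) had 50.3, 60.0 and 57.3 CPM, against 77.2 and 82.5 CPM (log2 fold change -0.52, SE 0.19, edgeR adjusted p = 0.218). CHIL, a relative of CHI that raises flux into flavonoids, averaged 182 ± 16.6 CPM in dof4.1-3 and 185 ± 32.8 CPM in Col-0 (SD, n = 3 and 2). F3'H (TT7), which adds the hydroxyl group that turns kaempferol precursors into quercetin precursors, averaged 338 ± 37.5 and 428 ± 70.3 CPM in the same order (log2 fold change -0.34). Both genes overlapped between the genotypes.

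Flavanone 3-hydroxylase (F3H, TT6, AT3G51240) stood apart by its level. It had 4, 22 and 27 counts in dof4.1-3 and 21 and 13 in Col-0, while CHS, which acts before it, had 8327 to 10456 counts in each library. F3H lies on the plus strand of chromosome 3 from 19025192 to 19026872, with 3 exons. The annotation places another gene, AT3G51238, on the opposite strand from 19025110 to 19026779, and 1415 of the 1508 exon bases of F3H (93.8%) fall in it. AT3G51238 had no counts in any library. The counts were made without strand, so reads in the shared bases cannot be assigned to either gene. By the default of htseq-count, which may not be the setting used, such reads are set aside as ambiguous, and the 93 exon bases of F3H outside the overlap are then the ones that could be counted. The F3H counts therefore cannot be read as the level of the gene. UGT89C1 (AT1G06000, chromosome 1, 1820308 to 1821894), the rhamnosyltransferase of the flavonol 7 position, is in the same state: 1580 of its 1587 exon bases (99.6%) lie in AT1G06002 on the other strand, which had 0 or 1 counts, and UGT89C1 had 0 in every library. Neither gene can be called low or silent from this table. Across the annotation, 1750 genes share at least 80% of their exon bases with other genes, and 33 of them (1.89%) passed the filter on low counts, against 18843 of 35301 (53.4%) of the other genes. Of the remaining members, TT19 shared 9.85%, MYB11 8.01%, TT12 5.23%, GL3 1.33% and CHS 0.12% of exon bases. Windows of 50 bases that occur elsewhere in the genome made up at most 4.24% of any member's transcript, in UF3GT.

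**Figure D3:**
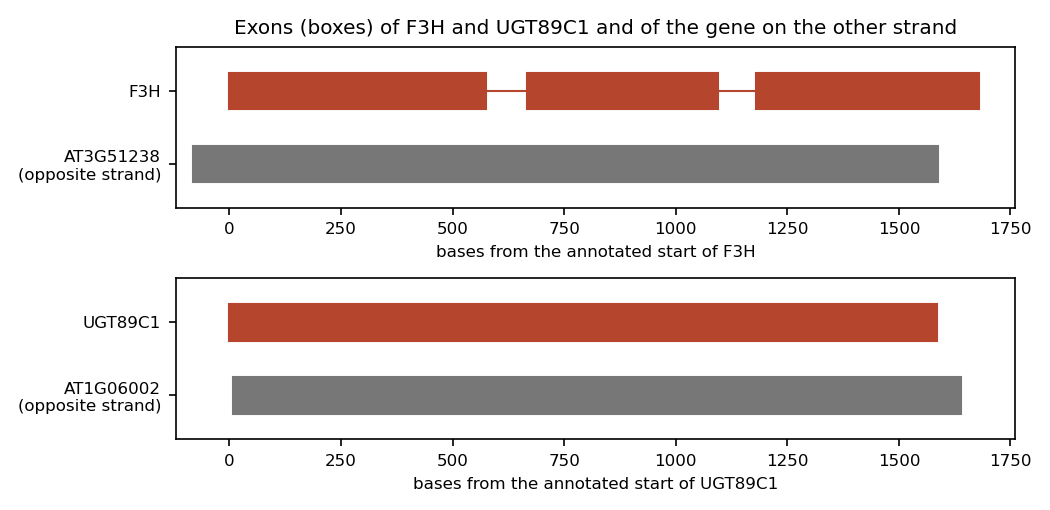
Exons of F3H and UGT89C1 (red boxes, joined by lines across introns) and of the gene annotated on the opposite strand (grey boxes), by distance in bases from the annotated start of each member. The grey gene covers 93.8% of the exon bases of F3H and 99.6% of those of UGT89C1.

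In the flavonol branch 3 of 5 genes were tested, the median log2 fold change was 0.39 and none was called in either direction (0 at an unadjusted p under 0.05 and 0 by DESeq2). Flavonol synthase FLS1 (AT5G08640, chromosome 5, 2803833 to 2805606) had 147, 207 and 116 CPM in dof4.1-3, against 112 and 105 CPM in Col-0. All mutant libraries were above both Col-0 libraries, the lowest of them narrowly, and the log2 fold change was 0.53 (SE 0.26, edgeR adjusted p = 0.365). UGT78D1, which adds rhamnose to flavonols, was level at 150 ± 14.0 CPM in dof4.1-3 and 152 ± 20.1 CPM in Col-0 (SD, n = 3 and 2). UGT78D2, which adds glucose to flavonols and anthocyanidins, averaged 38.6 ± 6.78 and 29.5 ± 3.18 CPM in the same order, and its groups overlapped. FLS3, a relative of FLS1, had 0, 6 and 1 counts in dof4.1-3 and 2 and 2 in Col-0 and was not tested.

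BAN was the one gene of the 33 past edgeR's threshold. BAN (BANYULS, AT1G61720, chromosome 1, 22790966 to 22792803, minus strand, 6 exons) encodes anthocyanidin reductase, which makes the flavan-3-ol units of proanthocyanidins and is known as a marker of the endothelium. It had 14.3, 9.71 and 11.7 CPM in dof4.1-3, against 41.4 and 44.8 CPM in Col-0. The genotypes lay far apart, and the mean was 11.9 ± 2.30 CPM in dof4.1-3 and 43.1 ± 2.44 CPM in Col-0 (SD, n = 3 and 2). The log2 fold change was -1.85 (SE 0.21, edgeR adjusted p = 0.0105), which is 3.61 times higher in Col-0. DESeq2 gave an adjusted p of 1.66e-10 and limma-voom 0.0136. The size barely moved when single libraries were left out (-2.01 to -1.72 on the log2 scale), but with Col-0 replicate 1 or 2 left out the edgeR adjusted p was 0.174 and 0.240, fits in which the lone Col-0 library is assumed to vary like the mutant ones.

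The enzymes just before BAN were lower in every mutant library but did not pass edgeR's threshold. LDOX (AT4G22880, chromosome 4, 12004726 to 12006209), the leucoanthocyanidin dioxygenase shared by anthocyanins and proanthocyanidins, had 6.56, 4.45 and 15.6 CPM in dof4.1-3, against 26.8 and 28.4 CPM in Col-0. Its log2 fold change was -1.64 (SE 0.46), with an adjusted p of 0.146 in edgeR and 0.011 in DESeq2. DFR (TT3, AT5G42800, chromosome 5, 17164093 to 17166032), the dihydroflavonol reductase, had 12.9, 8.68 and 23.7 CPM, against 29.3 and 31.5 CPM (log2 fold change -1.01, SE 0.36, edgeR adjusted p = 0.227, DESeq2 0.12). In both genes dof4.1-3 replicate 3 was the highest mutant library, nearest to Col-0, while in BAN it was the middle one. DFR stood at 0.905, 0.894 and 2.02 times BAN in dof4.1-3 and at 0.708 and 0.702 times in Col-0, so within the mutant the upstream and downstream genes did not keep a fixed ratio. Without dof4.1-3 replicate 3, LDOX had a log2 fold change of -2.32 and an edgeR adjusted p of 0.0355. With any other library left out its log2 fold change was -1.67 to -1.31 and it did not pass (adjusted p 0.074 to 0.641).

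DFR, LDOX and BAN together made up 33.8, 22.8 and 51.1 CPM in dof4.1-3, against 97.4 and 105 CPM in Col-0. CHS was 33.3, 46.5 and 40.9 times BAN in dof4.1-3, against 13.7 and 11.4 times in Col-0. FLS1 was 11.3, 23.9 and 4.87 times DFR in dof4.1-3, against 3.84 and 3.32 times in Col-0. In both ratios the genotypes did not overlap. A ratio does not show which of its genes differs, and these are descriptions of 5 libraries with no test. UF3GT (AT5G54060), a glycosyltransferase of anthocyanins, had 0.775, 0.271 and 0.260 CPM in dof4.1-3, against 1.11 and 2.06 CPM in Col-0, with a log2 fold change of -1.83 (SE 0.58, edgeR adjusted p = 0.163). Without dof4.1-3 replicate 1 its log2 fold change was -2.56 and the adjusted p 0.0404, while with any other library left out it was -2.20 to -1.32 and did not pass (adjusted p 0.127 to 0.532).

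**Figure D4:**
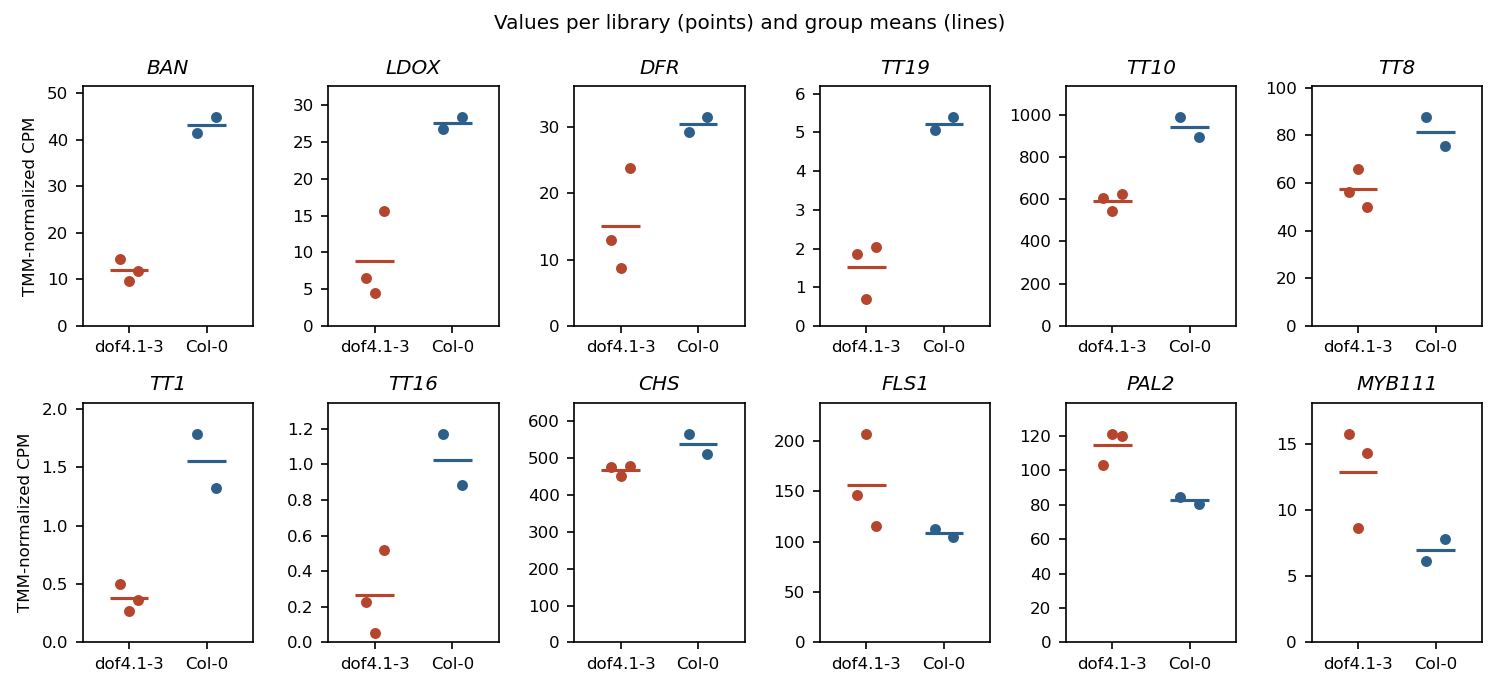
TMM-normalized CPM (vertical axes, each from 0) of 12 genes in the 3 dof4.1-3 libraries (red, left) and the 2 Col-0 libraries (blue, right), with lines at the group means. BAN, LDOX, DFR, TT19, TT10, TT8, TT1, TT16 and CHS have all mutant libraries below Col-0, by a narrow margin for CHS, and FLS1, PAL2 and MYB111 have them above. The 12 shown are all genes whose groups did not overlap, and the 15 of 33 tested genes that overlapped are left out. Over all tested genes 18.3% lay below and 16.3% above in this way.

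Among the proteins that carry and oxidise the products, 5 of 6 genes were tested and none was called by edgeR. At an unadjusted p under 0.05 in edgeR, 2 were lower (9.52% over all genes). DESeq2 called the same pair lower (3.29% over all genes). TT19 (GSTF12, AT5G17220, chromosome 5, 5658416 to 5659661), a glutathione S-transferase needed to bring anthocyanins and proanthocyanidin precursors to the vacuole, had 1.87, 0.705 and 2.03 CPM in dof4.1-3, against 5.06 and 5.39 CPM in Col-0. Its log2 fold change was -1.76 (SE 0.41), with an adjusted p of 0.0815 in edgeR and 0.00848 in DESeq2. It passed in edgeR without dof4.1-3 replicate 1 (0.0455) or 2 (0.0242) and did not pass without dof4.1-3 replicate 3 (0.155) or without Col-0 replicate 1 (0.510) or 2 (0.339). TT10 (AT5G48100, chromosome 5, 19489327 to 19492744) had 606, 545 and 625 CPM, against 988 and 892 CPM, a log2 fold change of -0.67 (SE 0.22) with an adjusted p of 0.189 in edgeR and 0.0168 in DESeq2. TT10 was the most abundant transcript of the set, and its means of 592 CPM in dof4.1-3 and 940 CPM in Col-0 stand beside sums over all 37 genes of 2507 to 2738 CPM and 3074 to 3306 CPM in the same order. AHA10, a vacuolar proton pump of the endothelium, TT15, a sterol glucosyltransferase, and TT9, a protein of vacuolar traffic, overlapped between the genotypes, with log2 fold changes of -0.38, -0.26 and 0.52. TT12, the vacuolar transporter of proanthocyanidin precursors, had 6, 0 and 3 counts in dof4.1-3 and 2 and 3 in Col-0 and was not tested.

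The complex that drives the late genes had lower values of all 3 of its seed coat members in every mutant library, and none was called. Over all tested genes, 18.3% lay below Col-0 in every mutant library. TT8 (AT4G09820, chromosome 4, 6181881 to 6186523), the bHLH partner, had 56.4, 66.1 and 50.1 CPM in dof4.1-3, against 87.6 and 75.4 CPM in Col-0 (log2 fold change -0.50, SE 0.20, edgeR adjusted p = 0.263). TT2 (AT5G35550, chromosome 5, 13726743 to 13727961), the MYB protein that gives the complex its target genes, had 0.410, 1.03 and 0.987 CPM, against 2.04 and 1.37 CPM (log2 fold change -1.07, SE 0.49, edgeR adjusted p = 0.329). TTG1, the WD40 scaffold, averaged 40.2 ± 5.51 CPM in dof4.1-3 and 48.8 ± 3.24 CPM in Col-0 (SD, n = 3 and 2), a log2 fold change of -0.28 (SE 0.19, edgeR adjusted p = 0.511). Its groups nearly met, at 40.5, 34.5 and 45.5 CPM in dof4.1-3, against 51.1 and 46.6 CPM in Col-0. The other bHLH genes, EGL3 and GL3, known from trichomes and root hairs as well, overlapped between the genotypes and had positive fold changes of 0.31 and 0.54 on the log2 scale.

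The regulators of endothelium identity TT1 and TT16 were scarce, and their estimates rest on few counts. TT1 (AT1G34790, chromosome 1, 12763902 to 12765686), a zinc finger protein, had 11, 5 and 7 counts in dof4.1-3, against 29 and 27 in Col-0. That is 0.501, 0.271 and 0.364 CPM, against 1.79 and 1.32 CPM, and the log2 fold change was -2.00 (SE 0.48), with an adjusted p of 0.0879 in edgeR and 0.0532 in DESeq2. TT16 (AT5G23260, chromosome 5, 7835965 to 7838555), a MADS-box protein that acts upstream of BAN, had 5, 1 and 10 counts, against 19 and 18 (log2 fold change -1.91, SE 0.69, edgeR adjusted p = 0.220). The TT16 estimate was -2.75 on the log2 scale without dof4.1-3 replicate 3 and -1.45 without dof4.1-3 replicate 2, and it passed in neither. Both had the mutant libraries below Col-0. KAN4 (ATS, AT5G42630), which the integuments of the ovule need to separate, did not share that pattern, with 5.22 ± 0.829 CPM in dof4.1-3 and 4.22 ± 0.823 CPM in Col-0 (SD, n = 3 and 2) and overlapping libraries.

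None of the MYB regulators of flavonols and anthocyanins was called, and their fold changes had both signs. MYB111 (AT5G49330, chromosome 5, 19998823 to 20001572) had 15.8, 8.63 and 14.3 CPM in dof4.1-3, against 6.17 and 7.84 CPM in Col-0, a log2 fold change of 0.88 (SE 0.29, edgeR adjusted p = 0.182). It passed only when dof4.1-3 replicate 2, its lowest mutant library, was left out (adjusted p = 0.0214). MYB12 and MYB11 overlapped, with log2 fold changes of -0.03 and -0.58. PAP1, the MYB protein of anthocyanin accumulation, had 10, 19 and 11 counts in dof4.1-3 and 7 and 7 in Col-0 (log2 fold change 0.81, SE 0.60), and its close relative PAP2 had none in any library.

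Another 32 genes of the pathway, among them further PAL, 4CL and FLS genes, anthocyanin modifying enzymes, repressors and F-box proteins, were read in the same fit. Of these 23 were tested and none was called in either direction by edgeR. At an unadjusted p under 0.05 in edgeR, 4 were lower and 2 higher (9.52% and 6.33% over all genes). DESeq2 called 1 higher and 0 lower (1.36% and 3.29% over all genes). Their median log2 fold change was -0.19, with 7 genes below and 4 above in every mutant library, where over all genes 18.3% lay below and 16.3% above. PAL4, a phenylalanine ammonia lyase, was the one that DESeq2 called: it had 232, 341 and 383 CPM in dof4.1-3, against 178 and 175 CPM in Col-0 (log2 fold change 0.85, SE 0.26, adjusted p = 0.146 in edgeR and 0.0292 in DESeq2). KFB-CHS, an F-box protein that sends chalcone synthase to degradation, had 21.8, 45.0 and 25.6 CPM, against 56.4 and 51.7 CPM (log2 fold change -0.81, edgeR adjusted p = 0.218). FLS2, a relative of FLS1, had 9.34, 16.4 and 9.30 CPM, against 19.2 and 18.9 CPM (log2 fold change -0.71, edgeR adjusted p = 0.241). MYB5, a partner of TT2 in the seed coat, lies wholly inside the exons of AT3G13530 on the other strand and had no counts, so it could not be read. The same holds for KFB50, 89.7% of whose exon bases are shared with AT3G09275.

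The fold changes of other transcripts of the seed had both signs. In bulk samples fewer cells of a type and less RNA per cell cannot be told apart. DELTA-VPE, a protease gene of the inner integument outside the flavonoid pathway, had 190, 195 and 186 CPM in dof4.1-3, against 297 and 275 CPM in Col-0 (log2 fold change -0.59, adjusted p = 0.188 in edgeR and 0.0336 in DESeq2). Of 16 outer integument and mucilage genes 15 had negative fold changes, with a median of -0.64 and summed levels of 3383 to 3753 CPM in dof4.1-3 and 4723 to 5996 CPM in Col-0. None of them was called by edgeR, 12 were lower at an unadjusted p under 0.05 (9.52% over all genes) and DESeq2 called 7 lower (3.29% over all genes). Those 7 were MUM4, MYB61, MUCI10, MUCI21, PMEI6, KNAT7 and URGT2. The study itself reported them as lower from these same libraries, so their calls are no separate support. All 11 embryo storage genes had positive fold changes, with a median of 1.58. Of these, edgeR called 0, and 9 were higher at an unadjusted p under 0.05 (6.33% over all genes). DESeq2 called 7 higher (1.36% over all genes). In OLEO1 and OLEO2 the genotypes overlapped. Cruciferin and napin genes were reported as higher by the study itself from these same libraries, so their direction is no separate support. Summed levels of the storage genes were 146600 to 355700 CPM in dof4.1-3, against 61880 to 120000 CPM in Col-0. The 6 early embryo genes summed to 79.2 to 115 CPM and 115 to 128 CPM in the same order. LEC1 and WOX8 among them were called lower by edgeR (0.963% over all genes). The 9 suberin genes of the seed coat summed to 70.4 to 104 CPM in dof4.1-3 and 63.7 to 71.5 CPM in Col-0. DESeq2 called 1 of them higher, ABCG6 (1.36% over all genes), and edgeR none. ABCG6 had 1.78, 10.9 and 1.82 CPM in dof4.1-3, far the highest in replicate 2, against 0.802 and 0.980 CPM in Col-0. The 9 endosperm genes summed to 6009 to 16590 CPM in dof4.1-3 and 6306 to 6723 CPM in Col-0, but EPR1 made up nearly all of this, at 6341, 5960 and 16540 CPM in dof4.1-3 and 6169 and 6577 CPM in Col-0. The median log2 fold change of the 4 tested endosperm genes was -0.92. ZOU, at 21.5, 14.5 and 18.9 CPM in dof4.1-3 and 31.6 and 37.1 CPM in Col-0, and ALE1, at 67.9, 34.5 and 35.1 CPM in dof4.1-3 and 104 and 106 CPM in Col-0, lay below Col-0 in every mutant library. Neither passed in edgeR (adjusted p = 0.0851 and 0.0940), and both did in DESeq2 (0.0151 and 0.00826). The 3 silique wall genes were at 10.3 to 17.6 and 23.5 to 24.3 CPM, and the 4 pollen genes at 4.94 to 13.8 and 12.7 to 25.7 CPM, also dof4.1-3 before Col-0. No gene of these marker lists was at 0 in all 5 libraries. The part of seed coat share, embryo or endosperm stage or silique tissue in the levels of the flavonoid genes was not tested.

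Set against DELTA-VPE in the same library, the genes separated. BAN stood at 7.53%, 4.97% and 6.33% of DELTA-VPE in dof4.1-3, against 14.0% and 16.3% in Col-0, so its groups stayed apart on this scale. TT19 stood at 0.983%, 0.361% and 1.09%, against 1.71% and 1.96%, also apart. LDOX was at 3.45%, 2.28% and 8.40%, against 9.03% and 10.3%, which is apart by a narrow margin in replicate 3 of dof4.1-3. DFR overlapped, at 6.81%, 4.44% and 12.8% in dof4.1-3 and 9.88% and 11.5% in Col-0. TT10 overlapped as well, at 319%, 279% and 337%, against 333% and 325%, so TT10 and DELTA-VPE kept about the same ratio in both genotypes. CHS went the other way, at 251%, 231% and 259% of DELTA-VPE in dof4.1-3, against 191% and 187% in Col-0. DELTA-VPE is a single gene, and these percentages are descriptions with no test.

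**Figure D5:**
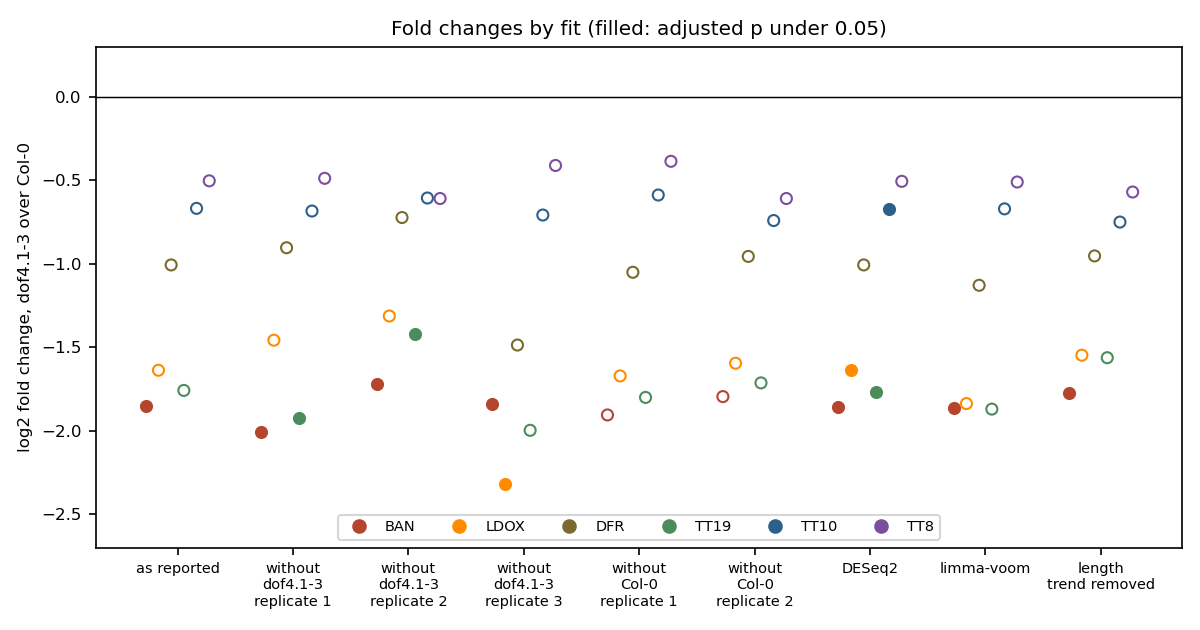
Log2 fold change, dof4.1-3 over Col-0 (vertical axis), of BAN, LDOX, DFR, TT19, TT10 and TT8 as reported, with each library left out in turn, and in DESeq2, limma-voom and with the trend over transcript length removed. Filled points passed an adjusted p of 0.05 in that fit. All values are below 0, and BAN lies between -2.01 and -1.72 but passes in no fit that leaves out a Col-0 library.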

How the data were processed

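RNA from developing seeds was sequenced by the authors as paired reads of 50 nt, trimmed with cutadapt, checked with FastQC, mapped to TAIR10 with HISAT2 and counted per gene with htseq-count. The deposited table holds raw counts, without strand by its name, with 1 column a library and 0 other columns of samples. The sources used here give no tool versions, annotation release or counting mode. The 5 summary lines (reads without a feature 0.727% to 1.74%, ambiguous 3.09% to 3.92%) and 9 blank lines stayed out of library sizes and tests.

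Genes were kept by filterByExpr, scaled with TMM (factors 0.849 to 1.20) and tested with edgeR 4.0.16 (quasi-likelihood, genotype as the only term, Benjamini-Hochberg over 19003 genes) in R 4.3.3. CPM were computed from the counts with the TMM factors, and lengths, overlaps and promoters were taken from TAIR10.1, which held 37051 of the 37336 gene IDs. The labels gave the genotype groups. Alternatives were DESeq2 1.42.0, limma-voom (limma 3.58.1), other scaling factors and filters, the replicate number as a block, removal of a length trend, and each library left out. The code was tested on simulated data. All 37 members are named, and of the other pathway genes the 3 with the smallest p. Members and lists were chosen with earlier results of these data known.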

Additional observations from a re-analysis of the deposited data

How the results depend on the processing

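With DESeq2, 625 genes were called lower and 258 higher, against 183 and 23 in edgeR, with 4 members lower and 1 other pathway gene higher. Without a filter on low counts the numbers were 565 and 170 genes, with 3 members lower (BAN, TT19 and TT1). With the trend over transcript length removed they were 44 and 10, and BAN remained called (-1.77 on the log2 scale, adjusted p = 0.0248). The fit with the replicate number as a block called 175 and 29 genes and 4 members lower (BAN, DFR, LDOX and TT19). It draws the genotype difference from replicates 1 and 2 only, since dof4.1-3 replicate 3 has no Col-0 partner. Block and length together called 2 and 2 genes and 0 members, and the median of the members was -0.35. Same-numbered libraries did not deviate together (r = -0.32 for both numbers). The deviations of the 2 Col-0 libraries from their mean mirror each other, so these values are not separate checks and cannot settle pairing. The numbers were not taken to pair samples, and a call that differs under the block is no sign of a stronger or weaker effect.

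With each library left out in turn, 0 to 707 genes were called lower and 0 to 181 higher, 0 to 3 members lower and 0 to 1 higher, 0 to 2 other pathway genes lower, and the median of the members ran from -0.29 to -0.19. Without Col-0 replicate 1, 2 and 1 genes were called, and without Col-0 replicate 2 none, so the counts of calls rest on having both Col-0 libraries. The counts were 338 and 162 without dof4.1-3 replicate 1, 707 and 181 without dof4.1-3 replicate 2, and 51 and 4 without dof4.1-3 replicate 3. Over 15 alternatives, 470 of 486 values of single members kept their side of the threshold, 3 were calls lost (BAN, without either Col-0 library and with block and length together, adjusted p 0.145 to 0.240) and 13 calls gained. Signs turned in 20 values of 6 uncalled members (CHIL, F3H, PAL1, UGT78D1, MYB12 and 4CL3). No sign turned under RLE or upper-quartile factors or when scaling ignored the 50 most abundant genes, which left the median of all genes at 0.02 to 0.03. The causes of these differences were not tested. Depth limits TT1, TT16, TT2, UF3GT, PAP1, GL3 and AHA10, which have few counts. It also limits TT19, with 41, 13 and 39 counts in dof4.1-3. For FLS3, TT12 and PAP2 no difference was detectable at this depth. F3H and UGT89C1 are limited by the annotated gene on the other strand.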
